A study of Homo sapiens with 6 samples.

Results

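SCAN-domain and BTB zinc finger factors are transcription factors that join C2H2 zinc fingers, which bind DNA, to a domain for contacts with other proteins. They were measured after antisense knockdown of the long noncoding RNA *SWINGN* in H226, an established human lung squamous carcinoma cell line. The members were all genes of the count table named ZSCAN or ZKSCAN (SCAN domain) or ZBTB (BTB domain) followed by a number and at most 1 letter. This gave 60 of the 17222 genes listed, of which 15 were ZSCAN, 7 were ZKSCAN and 38 were ZBTB genes. Poly(A)-primed RNA-seq compared 3 libraries of cells transfected with the control oligonucleotide ASO_CTRL with 3 libraries of cells transfected with ASO_LINC#3, an antisense oligonucleotide against *LINC00565*, which is the earlier name of *SWINGN*. All cells were collected 48 h after transient transfection. The knockdown rests on 1 oligonucleotide in 1 cell line, so effects of that oligonucleotide other than loss of its target cannot be told apart from the knockdown. The target transcript itself was not analysed here. The labels do not say whether the replicates were separate cultures, while the study describes its experiments in general as biological replicates. The p-values measure the spread between these libraries.

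The SCAN domain is a leucine-rich stretch through which these factors pair with themselves and with other SCAN proteins. ZKSCAN proteins also carry a KRAB domain, which in many zinc finger proteins, though not in all, recruits *TRIM28* and with it histone methylation and heterochromatin proteins. The BTB domain, found at the N-terminus of ZBTB proteins, likewise forms dimers, and in several of them binds the NCOR and *BCOR* co-repressors or the ubiquitin ligase scaffold *CUL3*. Many of the members that have been studied act as repressors of transcription.

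Reads on genes ranged from 3686828 to 10546786 per library, and the library of ASO_LINC#3 replicate 3 had the fewest. Among the 14660 genes tested, 1106 were called without regard to direction, and the same fit without ASO_LINC#3 replicate 3 called 2616. The labelled cell type was only partly borne out by its markers. Levels are given as CPM, the reads of a gene per 1000000 reads on genes after TMM scaling of the library sizes. Of 6 squamous genes, 2 had a row, *KRT5* and *KRT6A*, and summed to between 94.4 and 117 CPM in control and 63.5 and 78.9 CPM in knockdown libraries, nearly all from *KRT5*. No row was found for *TP63*, *KRT14*, *DSG3* and *SOX2*, nor for the epithelial genes *EPCAM* and *CDH1*. The epithelial keratins *KRT8*, *KRT18* and *KRT19* summed to between 8084 and 8465 CPM in control libraries and 4923 and 8665 CPM in knockdown libraries. The 4 mesothelial genes *MSLN*, *WT1*, *CALB2* and *UPK3B* summed to between 634 and 834 CPM in control and 209 and 323 CPM in knockdown libraries, and *CALB2* was called lower. The summed level of the 2 listed fibroblast genes with a row, *COL1A1* and *THY1*, was 376 to 474 CPM in control and 216 to 246 CPM in knockdown libraries, with *COL1A1* called lower. Of 5 blood and endothelial genes only *CD68* had a row, at 1.37 ± 0.453 CPM in control and 4.13 ± 2.07 CPM in knockdown cells. The part of these marker changes in the results below was not tested.

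After knockdown 3 members changed. *ZSCAN31* fell from 24.7 ± 3.85 to 4.65 ± 0.665 CPM (mean ± SD, n = 3), *ZBTB7C* fell from 3.99 ± 0.786 to 1.02 ± 0.336 CPM and *ZBTB43*, which rose, went from 23.97 ± 2.17 to 45.2 ± 4.75 CPM. The study's thresholds were applied for a call, an adjusted p below 0.01 in edgeR's quasi-likelihood test with a log2 fold change of more than 0.5 up or down. By this rule 3 of the 57 members that could be tested were called, where 7.54% of all genes tested were called. The called members were 1 of 21 SCAN genes and 2 of 36 ZBTB genes. In the downward direction 2 members were called against 2.63% of all genes, and in the upward direction 1 member against 4.91%. At the looser adjusted p below 0.05, with no bound on the fold change, 6 members passed, against 18.0% of all genes. The median log2 fold change was 0.09 over the SCAN members, -0.01 over the ZBTB members and -0.0027 over all genes tested. Of the SCAN members 12 had a positive and 9 a negative log2 fold change, and of the ZBTB members 17 had a positive and 19 a negative one.

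**Figure D1:**
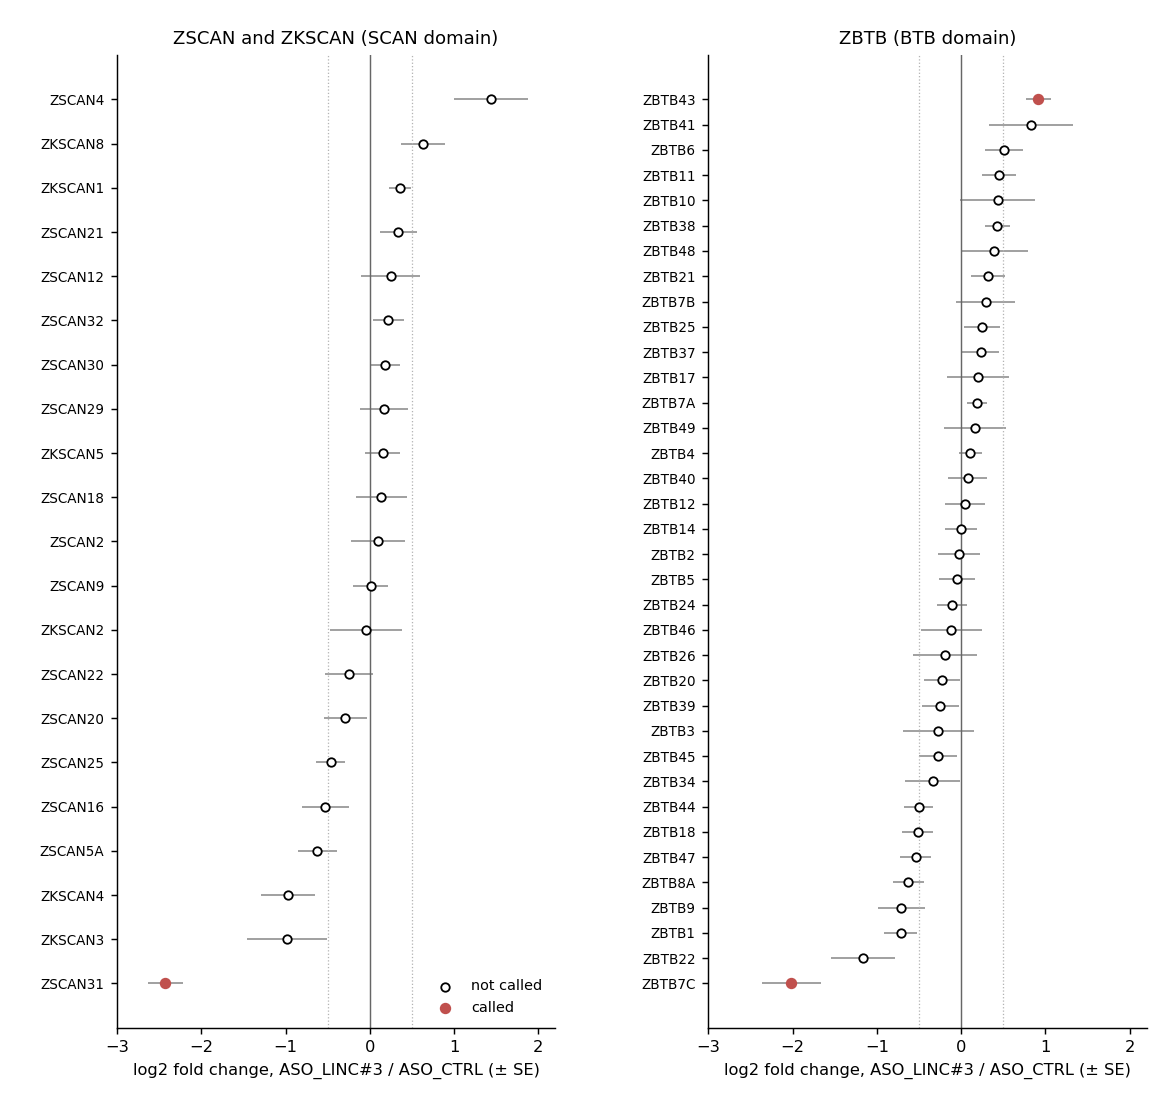
Log2 fold change of ASO_LINC#3 over ASO_CTRL with its standard error for the 21 tested SCAN members (left) and the 36 tested ZBTB members (right), ordered by value. Filled points are the called members, *ZSCAN31* and *ZBTB7C* at the low ends and *ZBTB43* at the high end, and dotted lines mark log2 fold changes of 0.5 to either side of 0.

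The groups did not overlap for 21 of the 57 members, 13 of them lower and 8 higher after knockdown, where 36.1% of all genes tested showed no overlap. The members separated the groups about as often as other genes. Of the 57, 3 passed the filter on low counts only through the group in which they were higher, with no library of the other group at the cutoff. The 3 were *ZBTB7C* and *ZBTB22*, through the controls, and *ZSCAN4*, through the knockdown libraries. *ZKSCAN3*, *ZKSCAN4*, *ZBTB26* and *ZBTB46* reached the cutoff in 3 control libraries but in fewer knockdown libraries, and *ZBTB41* the reverse. The SCAN members without overlap and lower after knockdown were *ZSCAN31*, *ZSCAN25*, *ZSCAN5A*, *ZSCAN16* and *ZKSCAN4*. Those higher were *ZKSCAN1*, *ZKSCAN8* and *ZSCAN4*. Among ZBTB genes, *ZBTB7C*, *ZBTB1*, *ZBTB8A*, *ZBTB9*, *ZBTB18*, *ZBTB22*, *ZBTB44* and *ZBTB47* were lower without overlap, and *ZBTB43*, *ZBTB38*, *ZBTB41*, *ZBTB6* and *ZBTB7A* were higher.

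*ZSCAN31*, formerly *ZNF323*, was the member with the strongest evidence for a change. Its level was 20.3, 27.7 and 25.9 CPM in ASO_CTRL replicates 1 to 3 and 4.26, 4.28 and 5.42 CPM in ASO_LINC#3 replicates 1 to 3. Every knockdown library was far below every control library. The raw counts behind these levels were 151, 161 and 272 in control and 29, 25 and 20 in knockdown cells. The log2 fold change was -2.42 (SE 0.21, 95% interval -2.89 to -1.96, adjusted p = 5.87e-05 by edgeR), and the gene ranked at 58 among all genes tested by p-value. Omitting any 1 of the 6 libraries kept the call, with log2 fold changes from -2.54 to -2.33. *ZSCAN31* lies at chr6:28292470-28324048 on the minus strand (GRCh37).

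*ZBTB7C* had the lowest level per kb of transcript of the 3 ZBTB7 genes, whose best-known member *ZBTB7A* encodes the repressor LRF. Its levels were 4.58, 3.10 and 4.29 CPM in the control libraries and 1.03, 0.68 and 1.36 CPM in the knockdown libraries. The groups did not overlap, but rested on few reads, with counts of 34, 18 and 45 in control and 7, 4 and 5 in knockdown cells. The log2 fold change was -2.02 (SE 0.35, 95% interval -2.80 to -1.24, adjusted p = 0.00368 by edgeR). The gene reached the test only through the control group, since no knockdown library reached the cutoff of the filter on low counts. The call was lost when certain single libraries were omitted, at adjusted p = 0.0179 without ASO_CTRL replicate 1, 0.0250 without ASO_CTRL replicate 3, 0.0233 without ASO_LINC#3 replicate 1 and 0.0210 without ASO_LINC#3 replicate 2. Its log2 fold change stayed between -2.20 and -1.79 whichever library was omitted. The call was also lost when glmTreat tested against the fold bound itself (adjusted p = 0.0126). Its relatives were not called. *ZBTB7A* had a log2 fold change of 0.19 (SE 0.12) and *ZBTB7B*, the regulator of CD4 T cell fate also called ThPOK, one of 0.29 (SE 0.35), which became -0.17 without ASO_LINC#3 replicate 3 and 0.61 without ASO_LINC#3 replicate 2.

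*ZBTB43* was the 1 member called higher. It stood at 26.0, 21.7 and 24.2 CPM in the control libraries and at 44.8, 50.1 and 40.7 CPM in the knockdown libraries. The lowest knockdown library was well above the highest control library. The log2 fold change was 0.92 (SE 0.15, 95% interval 0.59 to 1.24, adjusted p = 0.00237 by edgeR). The call was lost at adjusted p = 0.0145 without ASO_CTRL replicate 2, 0.0200 without ASO_CTRL replicate 3, 0.0142 without ASO_LINC#3 replicate 1 and 0.0132 without ASO_LINC#3 replicate 2, while the log2 fold change stayed between 0.84 and 0.98. With glmTreat, which tests against the fold bound, its adjusted p was 0.0435. Without ASO_LINC#3 replicate 3, the library with the fewest reads, all 3 members were called and *ZBTB38* in addition. That fit called 17.2% of all genes tested.

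**Figure D2:**
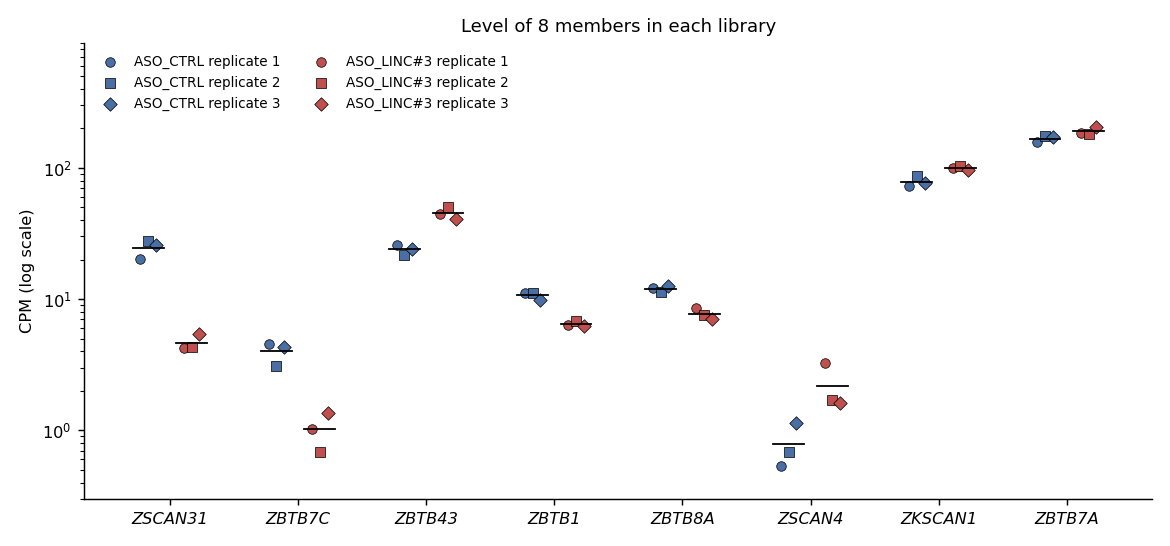
CPM (log scale) of 8 members in the 6 libraries, with ASO_CTRL in blue and ASO_LINC#3 in red, symbols for the replicates and a line at each group mean. *ZSCAN31*, *ZBTB7C*, *ZBTB1* and *ZBTB8A* have every knockdown library below every control library, and *ZBTB43*, *ZSCAN4*, *ZKSCAN1* and *ZBTB7A* every one above.

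The promoters of the 3 called members are shown because their CpG content differs between the 2 called lower and the 1 called higher. That of *ZKSCAN4*, a neighbour of *ZSCAN31* that was not called, is shown as well. The sequences are from RefSeq (GRCh38.p14), run 5′ to 3′ along the gene's strand from 250 bases before to 50 bases after the annotated start, and have CG dinucleotides in capitals. *ZSCAN31* is at chr6:28356222-28356521 (minus strand), *ZBTB7C* at chr18:48375578-48375877 (minus strand), *ZBTB43* at chr9:126804790-126805089 (plus strand) and *ZKSCAN4* at chr6:28259162-28259461 (minus strand).
ZSCAN31: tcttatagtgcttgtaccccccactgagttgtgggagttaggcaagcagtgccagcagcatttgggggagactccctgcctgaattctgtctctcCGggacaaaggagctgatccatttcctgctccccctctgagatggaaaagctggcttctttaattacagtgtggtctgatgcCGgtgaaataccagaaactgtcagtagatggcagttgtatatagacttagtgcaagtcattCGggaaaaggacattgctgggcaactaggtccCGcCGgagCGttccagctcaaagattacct
ZBTB7C: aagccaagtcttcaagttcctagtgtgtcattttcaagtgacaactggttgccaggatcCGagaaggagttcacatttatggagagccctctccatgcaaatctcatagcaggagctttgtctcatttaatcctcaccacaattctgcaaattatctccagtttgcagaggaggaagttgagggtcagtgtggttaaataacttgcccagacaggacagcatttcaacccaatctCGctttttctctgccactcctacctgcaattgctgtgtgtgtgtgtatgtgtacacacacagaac
ZBTB43: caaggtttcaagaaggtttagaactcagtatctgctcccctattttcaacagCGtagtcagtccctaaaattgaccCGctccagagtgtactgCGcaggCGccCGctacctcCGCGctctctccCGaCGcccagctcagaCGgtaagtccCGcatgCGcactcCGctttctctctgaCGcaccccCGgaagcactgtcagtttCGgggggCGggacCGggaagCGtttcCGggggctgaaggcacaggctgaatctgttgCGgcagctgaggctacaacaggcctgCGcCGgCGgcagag
ZKSCAN4: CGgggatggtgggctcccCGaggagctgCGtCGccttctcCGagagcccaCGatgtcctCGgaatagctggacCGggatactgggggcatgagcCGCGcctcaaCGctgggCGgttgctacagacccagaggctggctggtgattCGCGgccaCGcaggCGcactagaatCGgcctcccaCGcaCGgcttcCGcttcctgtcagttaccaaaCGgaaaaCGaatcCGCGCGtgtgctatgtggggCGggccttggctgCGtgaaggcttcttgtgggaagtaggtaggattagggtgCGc
For each gene the first window listed was used, and whether these cells use that start was not tested. The *ZSCAN31* window held 6 CG dinucleotides and that of *ZBTB7C* held 2, against 24 in that of *ZBTB43* and 28 in that of *ZKSCAN4*. As a ratio of CG dinucleotides found to those expected from the C and G content, these were 0.32, 0.13, 0.86 and 0.92, and the median over the 53 members with a promoter sequence was 0.84. Of the 50 members that were tested and had a sequence, 7 had a ratio below 0.4, and 2 of these 7 were called, both lower. The other 5 were *ZBTB38*, *ZBTB47*, *ZBTB20*, *ZBTB7B* and *ZSCAN4*, with log2 fold changes from -0.54 to 1.44. Among the 7, *ZBTB7C* and *ZSCAN4* had passed the filter only through the group in which they were higher, so the count of calls rests partly on a member that had to differ to be tested. Of the 43 at or above 0.4, 1 was called. Over all genes tested with a sequence, 17.8% of 765 genes below 0.4 and 7.2% of 8055 at or above it were called, of the former 38 lower and 98 higher. The Spearman correlation of the ratio with the log2 fold change was 0.121 over the 50 members and -0.038 over 8820 genes. The dividing value of 0.4 was chosen after the values had been seen. The counts and correlations are given as a description with no test.

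**Figure D3:**
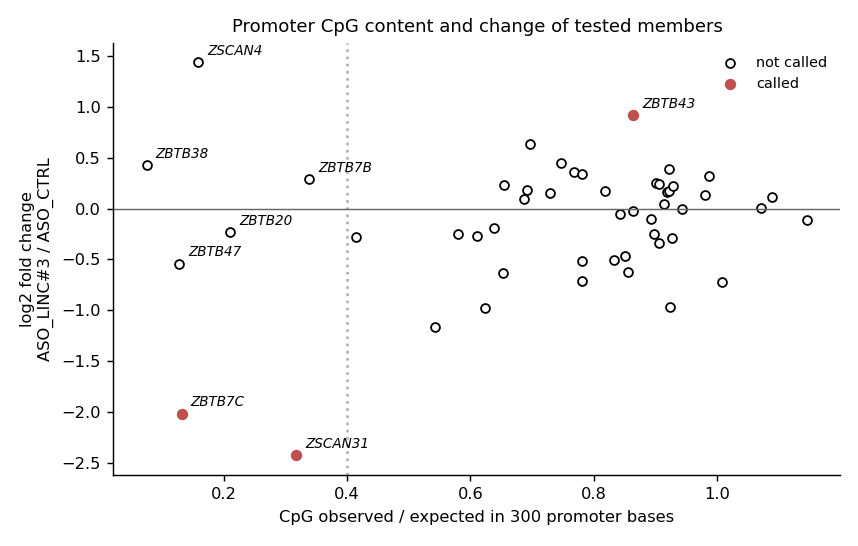
Log2 fold change of the 50 tested members with a promoter sequence against the ratio of observed to expected CpG in 300 promoter bases. The dotted line marks 0.4, left of which lie 7 members, the called *ZSCAN31* and *ZBTB7C* among them, and filled points are called members.

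Short motifs were searched on both strands of the same windows. CCGGAAG, a core bound by ETS factors, was found in 21 of 53 member promoters (39.6%), against 19.99% of 8820 promoters of tested genes and 10.3% of all 35116 promoters. *ZBTB43* had 1 match, starting 66 bases before the gene start. Matches to GCGCANGC, an NRF1 core, were in 18.9% of members and 22.2% of tested genes' promoters, with 3 in the *ZBTB43* window. The hypoxia core ACGTG, which can lie within the E-box CACGTG, was in 32.1% and 26.8%, the E-box in 13.2% and 10.4%, the AP-1 motif TGANTCA in 5.66% and 4.59% and TGACGTCA in 5.66% and 3.4%. CTCGCGAG, a core associated with *ZBTB33*, was in 2 member promoters (3.77%) and in 2.19% of those of tested genes. The windows of *ZSCAN31*, *ZBTB7C* and *ZKSCAN4* held no match to any of these 7 motifs. A match is a description of letters only and no binding was measured.

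By level, the SCAN genes were led by *ZKSCAN1*, which had 9.49 CPM per kb of transcript (mean of 6 libraries), followed by *ZSCAN32* at 8.94 and *ZSCAN9* at 5.32. *ZKSCAN1*, best known as the host gene of an abundant circular RNA, was at 72.7, 86.0 and 76.2 CPM in control and 99.6, 104 and 96.8 CPM in knockdown libraries. All its knockdown libraries were above the controls. Its log2 fold change was 0.36 (SE 0.13, adjusted p = 0.0757), so that it passed neither part of the rule. *ZSCAN32* was at 27.3, 28.2 and 21.9 CPM in control and 33.1, 33.0 and 23.0 CPM in knockdown libraries, with a log2 fold change of 0.22 (SE 0.18). *ZSCAN9* was at 9.29, 8.43 and 8.87 CPM against 9.99, 9.58 and 6.78 CPM, with a log2 fold change of 0.01 (SE 0.21). For both the groups overlapped.

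Summed over their members, the ZSCAN genes made up 134 ± 6.09 CPM (SD, n = 3) in control and 116 ± 13.3 CPM in knockdown libraries, a ratio of 86.5%. *ZSCAN31* alone was 18.4% of the control sum, and without it the sums were 109 ± 7.78 and 111 ± 13.97 CPM. The ZKSCAN sum was 103 ± 5.25 CPM in control and 125 ± 2.47 CPM in knockdown libraries, a ratio of 121%, and these groups did not overlap. *ZKSCAN1* was 76.0% of that sum, and without it the sums were 24.8 ± 1.74 and 24.4 ± 3.56 CPM. Without that 1 gene, the sums of either family differed by less than the spread between libraries. The ZBTB sum was 600 ± 11.6 CPM in control and 654 ± 16.4 CPM in knockdown libraries, a ratio of 109%, and *ZBTB7A* was 27.8% of its control value. Without *ZBTB7A* the sums were 433 ± 2.36 and 464 ± 29.5 CPM, and ASO_LINC#3 replicate 3, at 431 CPM, lay within the control range.

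Among further SCAN genes, *ZSCAN25* was at 13.5, 13.6 and 13.6 CPM in control and 8.97, 10.8 and 9.76 CPM in knockdown libraries. It had a log2 fold change of -0.47 (SE 0.18, adjusted p = 0.0895), without overlap of the groups. *ZSCAN30* was at 20.3, 22.5 and 18.2 CPM against 26.3, 23.6 and 18.2 CPM (log2 fold change 0.18, SE 0.18). *ZKSCAN5* was at 10.8, 10.5 and 9.73 CPM against 10.4, 9.75 and 14.9 CPM (log2 fold change 0.16, SE 0.21), where ASO_LINC#3 replicate 3 alone stood above the controls.

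*ZKSCAN3*, a repressor of autophagy and lysosome genes, was scarce, with 20, 10 and 22 counts in control and 4, 12 and 2 counts in knockdown libraries. These were 2.69, 1.72 and 2.10 CPM against 0.59, 2.05 and 0.54 CPM, so ASO_LINC#3 replicate 2 lay among the controls. The log2 fold change was -0.98 (SE 0.48, adjusted p = 0.183), and its 95% interval from -2.04 to 0.07 included 0. The log2 fold change was -1.90 (adjusted p = 0.0458) without ASO_LINC#3 replicate 2 and -0.60 (adjusted p = 0.511) without ASO_LINC#3 replicate 1. Of the 7 autophagy and lysosome genes listed as repressed by *ZKSCAN3*, 6 had a positive log2 fold change. *MAP1LC3B*, which encodes the autophagosome protein LC3B, rose (0.79, SE 0.12, adjusted p = 0.0014), as did the autophagosome factor *WIPI2* (0.72, SE 0.12, adjusted p = 0.00233). The other 5 were not called, among them the initiating kinase gene *ULK1* (0.72, SE 0.17, adjusted p = 0.0144), which DESeq2 did call. The median log2 fold change of the 7 was 0.41. Over all genes tested, 4.91% were called higher. Whether the changes of these 7 genes have to do with *ZKSCAN3* was not tested.

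*ZSCAN4*, known for its bursts of expression in early embryos and embryonic stem cells, where it bears on telomere maintenance, was near the limit of detection. Its counts were 4, 4 and 12 in control and 22, 10 and 6 in knockdown libraries, which are 0.54, 0.69 and 1.14 CPM against 3.23, 1.71 and 1.63 CPM. The groups did not overlap in CPM, though they did in raw counts. Its log2 fold change was 1.44 (SE 0.44, adjusted p = 0.0449), and it reached the test only through the knockdown group.

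Several SCAN genes are neighbours on the genome. By their GRCh37 positions, members within 1 Mb of the next formed 8 clusters. The largest held 7 genes in 292 kb at chr6:28075467-28367524, in order *ZSCAN16*, *ZKSCAN8*, *ZSCAN9*, *ZKSCAN4*, *ZSCAN31*, *ZKSCAN3* and *ZSCAN12*. Of these 4 had a negative and 3 a positive log2 fold change, and *ZSCAN31* was the 1 called. *ZKSCAN4* was at 3.50, 2.93 and 4.77 CPM in control and 1.91, 2.40 and 1.36 CPM in knockdown libraries, with a log2 fold change of -0.97 (SE 0.32, adjusted p = 0.0619). *ZKSCAN8* had a log2 fold change of 0.63 (SE 0.26, adjusted p = 0.121), *ZSCAN16* one of -0.53 (SE 0.28) and *ZSCAN12* one of 0.25 (SE 0.35). Within 1 Mb of *ZSCAN31* there were 15 other tested genes, none called by edgeR, DESeq2 or limma-voom. Of the 15, 3 had an unadjusted p below 0.05 in edgeR, as did 4752 of all 14660 genes tested. The 15 genes had 7 negative and 8 positive log2 fold changes with a median of 0.007.

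*ZSCAN31* and *ZKSCAN3* overlap by 6325 bases on opposite strands. The strand setting of the authors' counting is not given in the sources used here. Reads in the shared stretch therefore cannot be assigned to one of them with certainty. The same limit holds for all 16 members that overlap another listed gene on the opposite strand. In this way *ZBTB25* overlaps *MTHFD1* and *AKAP5*, *ZBTB37* overlaps *GAS5* and *ZSCAN30* overlaps *ZNF397*. In control cells *ZSCAN31* was at 24.7 ± 3.85 CPM and *ZKSCAN3* at 2.17 ± 0.49 CPM (SD, n = 3). The antisense RNA *ZSCAN16-AS1* had a log2 fold change of -0.65 (SE 0.28, adjusted p = 0.14), beside -0.53 for *ZSCAN16*.

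**Figure D4:**
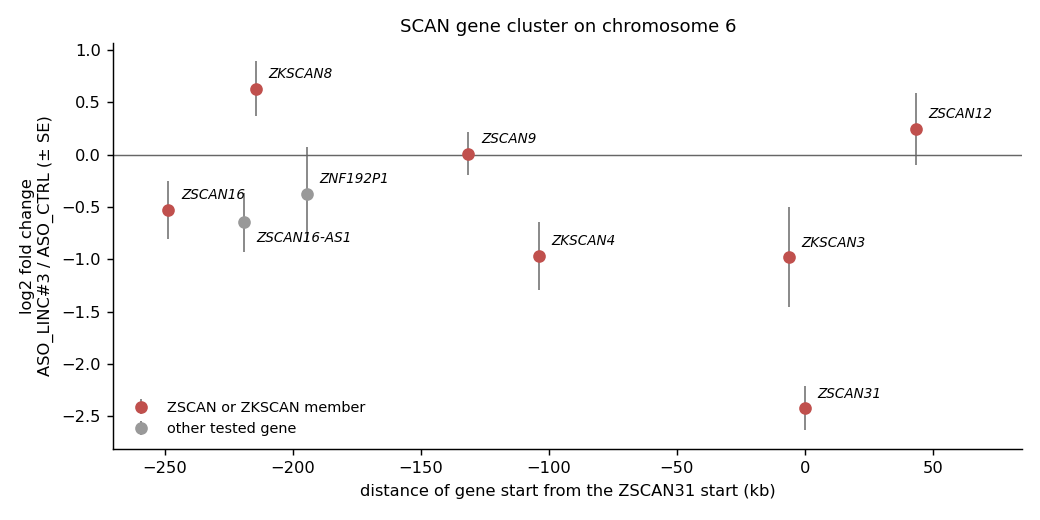
Log2 fold change with its standard error for the tested genes of the SCAN cluster on chromosome 6 against the distance of each gene's start from that of *ZSCAN31*, in kb. *ZSCAN31* is at -2.42, while the other 6 members of the cluster lie between -0.98 and 0.63 without order by distance.

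Of the other clusters, those on chromosomes 7, 9, 14 and 19 were mixed as well. The cluster on chromosome 1 had negative log2 fold changes only, -0.63 for *ZBTB8A* and -0.29 (SE 0.26) for *ZSCAN20*. The second cluster on chromosome 6 was also negative only. On chromosome 7, *ZKSCAN1*, *ZKSCAN5* and *ZSCAN21* had positive and *ZSCAN25* a negative log2 fold change. On chromosome 9, *ZBTB43* lies beside *ZBTB34*, which had a log2 fold change of -0.34 (SE 0.32). On chromosome 14, *ZBTB1* and *ZBTB25* overlap by 1502 bases on opposite strands. *ZBTB1* had a log2 fold change of -0.72 and *ZBTB25* one of 0.25 (SE 0.21). On chromosome 6, outside the SCAN cluster, *ZBTB22* and *ZBTB9* had log2 fold changes of -1.17 (SE 0.38, adjusted p = 0.0566) and -0.71 (SE 0.28, adjusted p = 0.101). *ZBTB22* was tested only through the control group, where it was higher, and its log2 fold change was -0.77 without ASO_CTRL replicate 3.

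Among ZBTB genes not called, *ZBTB1*, needed for lymphoid development, was the one nearest to the threshold. It was at 11.2, 11.2 and 9.83 CPM in control and 6.32, 6.85 and 6.24 CPM in knockdown libraries. All knockdown libraries were below the controls, and its log2 fold change was -0.72 (SE 0.19, adjusted p = 0.0262). *ZBTB8A* was at 12.1, 11.4 and 12.5 CPM against 8.52, 7.53 and 7.05 CPM, with a log2 fold change of -0.63 (SE 0.19, adjusted p = 0.0391), again without overlap. It shares 5770 bases with *ZBTB8OS* on the opposite strand, which had a log2 fold change of -0.13 (SE 0.19).

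*ZBTB47* was at 18.5, 17.7 and 19.0 CPM in control and 10.4, 14.9 and 12.7 CPM in knockdown libraries (log2 fold change -0.54, SE 0.18, adjusted p = 0.0619). *ZBTB18*, a repressor needed for brain development, was at 16.97, 19.6 and 17.7 CPM against 15.0, 10.8 and 11.9 CPM (log2 fold change -0.51, SE 0.18, adjusted p = 0.0751). *ZBTB44* was at 22.8, 26.8 and 27.3 CPM against 21.2, 17.1 and 15.5 CPM (log2 fold change -0.50, SE 0.17, adjusted p = 0.0664). These 3 genes passed the fold bound, showed no overlap and missed the adjusted p. When the fit also corrected for GC content and length of the transcripts, *ZBTB44*, *ZBTB1* and *ZBTB8A* were called, with adjusted p of 0.00839, 0.00385 and 0.00899. Under that correction 13.4% of all genes were called.

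On the other side, *ZBTB11*, which is needed for neutrophil development, was at 29.6, 39.6 and 44.3 CPM in control and 56.7, 60.2 and 37.1 CPM in knockdown libraries. ASO_LINC#3 replicate 3 lay within the control range, and the log2 fold change was 0.45 (SE 0.21, adjusted p = 0.16). *ZBTB21* was at 9.02, 7.92 and 7.63 CPM against 10.6, 11.3 and 8.40 CPM (log2 fold change 0.32, SE 0.20). *ZBTB25* was at 17.5, 17.04 and 20.7 CPM against 22.8, 27.2 and 14.9 CPM, and *ZBTB37* at 8.62, 6.54 and 8.39 CPM against 10.3, 10.1 and 7.05 CPM (log2 fold change 0.23, SE 0.22). In each of these 4 genes ASO_LINC#3 replicate 3 was the lowest of its group.

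*ZBTB33* (Kaiso), *ZBTB4* and *ZBTB38* are the ZBTB proteins known to bind methylated CpG. *ZBTB38* was at 51.9, 52.0 and 55.7 CPM in control and 77.0, 77.9 and 59.4 CPM in knockdown libraries. Every knockdown library was above every control library, with a log2 fold change of 0.43 (SE 0.14, adjusted p = 0.0623). Without ASO_LINC#3 replicate 3 it was 0.54 and passed the rule (adjusted p = 0.00271), in a fit that called 17.2% of all genes tested. *ZBTB4* was at 54.4, 51.8 and 47.4 CPM against 55.6, 59.2 and 50.4 CPM, with a log2 fold change of 0.11 (SE 0.13, adjusted p = 0.615). *ZBTB33* was below the filter on low counts and was not tested. Its counts were 7, 2 and 4 in control and 10, 11 and 5 in knockdown libraries, or 0.94, 0.34 and 0.38 CPM against 1.47, 1.88 and 1.36 CPM. In a fit with no filter its log2 fold change was 1.501 (SE 0.52, adjusted p = 0.0745).

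The untested *ZBTB42* and *ZKSCAN7* were at 0.34 to 1.21 CPM and 0.27 to 1.72 CPM across the libraries, with log2 fold changes of -0.60 (SE 0.52) and -0.72 (SE 0.50) in the same unfiltered fit. No row was found for *ZBTB16* or *ZSCAN10*, which were not analysed here.

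*ZBTB7A* was the ZBTB gene with the highest level, 27.7 CPM per kb of transcript, followed by *ZBTB4* at 9.07 and *ZBTB11* at 7.88. It was at 156, 174 and 170 CPM in control and 185, 180 and 205 CPM in knockdown libraries. The groups did not overlap, but the log2 fold change was only 0.19 (SE 0.12, 95% interval -0.08 to 0.45, adjusted p = 0.324). Of 3 glycolytic genes listed as repressed by *ZBTB7A*, the glucose transporter gene *SLC2A3* rose (log2 fold change 2.82, SE 0.17, adjusted p = 5.83e-06) and so did *PFKP*, a phosphofructokinase gene (0.70, SE 0.13, adjusted p = 0.0044). The remaining gene, *PKM*, had a log2 fold change of -0.03 (SE 0.25). Over all genes tested, 4.91% were called higher. *ZBTB7A* itself was not called, and a link of these 3 genes to it was not tested.

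*ZBTB17* (MIZ1), the partner through which MYC represses genes, was at 12.3, 15.1 and 7.54 CPM in control and 8.67, 9.93 and 22.5 CPM in knockdown libraries. ASO_LINC#3 replicate 3 was above every control and the other two knockdown libraries lay among the controls. The log2 fold change of 0.20 (SE 0.36, adjusted p = 0.745) became -0.29 without that library and -0.05 without ASO_CTRL replicate 3. None of 5 tested genes regulated by *ZBTB17*, among them the cell cycle inhibitor genes *CDKN1A* and *CDKN2B*, was called by edgeR, DESeq2 or limma-voom. None of the 5 had an unadjusted p below 0.05 in edgeR, where 4752 of all 14660 genes tested did. The 5 genes had 2 positive and 3 negative log2 fold changes. *ZBTB20*, a repressor first known for silencing *AFP* in liver, was at 14.1, 10.8 and 10.8 CPM against 12.2, 9.58 and 8.13 CPM, with a log2 fold change of -0.23 (SE 0.21).

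*ZBTB48* (TZAP) binds telomere repeats and trims telomeres. It was at 2.96, 3.10 and 2.29 CPM in control and 2.06, 3.08 and 6.51 CPM in knockdown libraries, so that ASO_LINC#3 replicate 3 again stood above all others. Its log2 fold change was 0.39 (SE 0.40, adjusted p = 0.537), and -0.10 without that library. Of 6 genes for telomere-associated proteins tested, *TERF1*, *TERF2*, *POT1*, *TINF2*, *ACD* and *TERF2IP*, none was called by edgeR, DESeq2 or limma-voom. In edgeR 1 had an unadjusted p below 0.05, as did 4752 of all 14660 genes tested. All 6 had positive log2 fold changes, with a median of 0.18.

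ASO_LINC#3 replicate 3 stood apart from replicates 1 and 2 along the GC content of the transcripts. The difference of its log2 change from the mean of the other two was correlated with transcript GC content across the 57 tested members (Pearson r = 0.484, Spearman rho = 0.444), as it was across 12697 tested genes with an annotation (r = 0.571). The genes share their libraries and are not independent replicates, so no p is given. Among the 19 members with the lowest GC content, from 32.9% to 41.9%, the median difference was -0.38 and 3 were positive. Among the 19 in the middle it was -0.22, and among the 19 with the highest GC content, from 51.0% to 65.8%, it was 0.17 and 13 were positive. *ZBTB17*, *ZBTB48* and *ZBTB7B*, all at or above 60.0% GC, had differences of 1.25, 1.27 and 1.25, and *ZKSCAN2*, at 47.6%, one of 1.48. After removal of a smooth trend on GC and length over all genes, the correlation over the members was -0.0582. The trend was fitted on the same values, members included, so a correlation near 0 follows from the removal itself. The called members have GC contents of 41.9% (*ZSCAN31*), 55.4% (*ZBTB7C*) and 43.6% (*ZBTB43*), and all remained called after that correction. The control libraries were not compared along GC content. Counts of library pairs differed by a chi-square per degree of freedom of 7.45 to 13.1 among controls. Between ASO_LINC#3 replicate 3 and replicates 1 and 2 it was 14.4 and 15.6, and between replicates 1 and 2 it was 2.63.

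**Figure D5:**
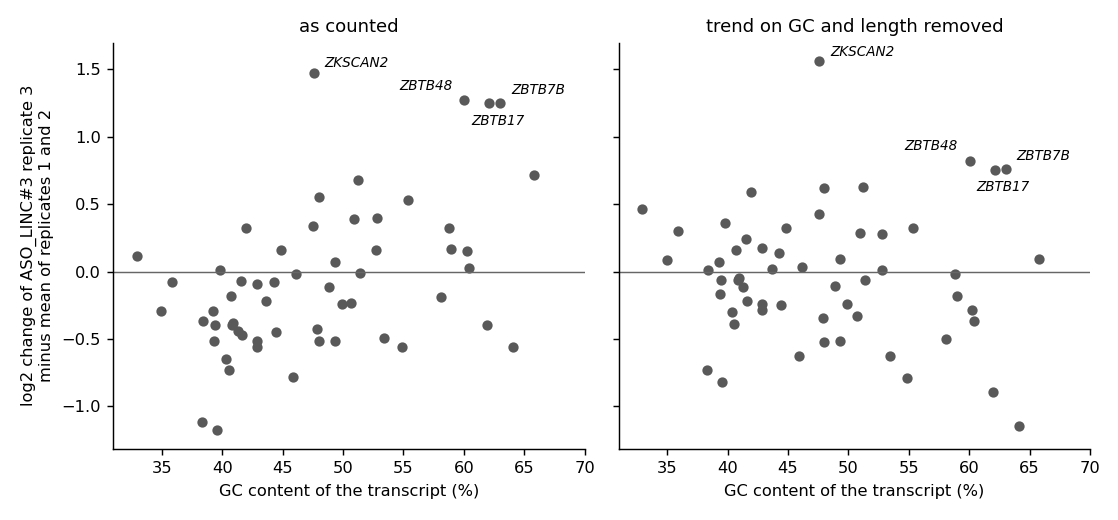
Difference between the log2 change of ASO_LINC#3 replicate 3 and the mean of replicates 1 and 2 against the GC content of the transcript for the 57 tested members, as counted (left) and after the trend on GC and length was removed (right). The upward trend on the left (r = 0.484) is absent on the right (r = -0.0582), which follows from its removal. *ZKSCAN2*, *ZBTB48*, *ZBTB17* and *ZBTB7B* stay high on both sides.

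The genes that carry the same domains under other names gave 1 call among 18 SCAN and 7 BTB genes tested, against 7.54% of all genes. Of the 18 SCAN genes without a ZSCAN or ZKSCAN name, such as *ZNF24*, *MZF1* and *SCAND1*, none was called by edgeR, DESeq2 or limma-voom. None had an unadjusted p below 0.05 in edgeR, where 4752 of all 14660 genes tested did. There were 10 positive and 8 negative log2 fold changes with a median of 0.10. Of the 7 BTB zinc finger genes without a ZBTB name, *HIC1*, a repressor gene often silenced by methylation in tumours, rose from 8.43 ± 0.952 to 19.5 ± 2.65 CPM (log2 fold change 1.20, SE 0.19, adjusted p = 0.00181). The other 6, among them the germinal centre repressor gene *BCL6* at 0.28 (SE 0.18), were not called. The median of these 7 was 0.28.

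The genes for the partners of these domains gave 1 call, where 7.54% of all genes tested were called. Of 15 tested genes for BTB co-repressors and the *CUL3* ligase none was called by edgeR, DESeq2 or limma-voom. In edgeR 6 had an unadjusted p below 0.05, as did 4752 of all 14660 genes tested. There were 7 positive and 8 negative log2 fold changes with a median of -0.01. Those passing an adjusted p of 0.05 were *BCOR* at 0.68 (SE 0.18, adjusted p = 0.0265) and *HDAC1* at -0.57 (SE 0.15, adjusted p = 0.0225). Of 9 genes of the KRAB co-repressor complex, *CBX5*, the gene for heterochromatin protein HP1 alpha, fell from 95.5 ± 6.44 to 57.0 ± 2.98 CPM (log2 fold change -0.74, SE 0.13, adjusted p = 0.0034). *TRIM28*, the protein that many KRAB domains bind, had a log2 fold change of -0.23 (SE 0.19), and 6 of the 9 were negative with a median of -0.23.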

How the data were processed

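RNA-seq was made from H226 cells with 3 ASO_CTRL and 3 ASO_LINC#3 libraries, grouped by the sample titles. The authors aligned single reads to hg19 with STAR and deposited raw counts per gene name, not normalized or pooled. How reads were counted, with which annotation and whether by strand, is not given in the sources used here. The methods name BJ cells for this experiment and the labels H226. Of each library's reads, 24.8% to 28.1% were assigned to no gene and were left out.

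All genes were fitted together in R 4.3.3 with edgeR 4.0.16: filterByExpr by condition, TMM, the quasi-likelihood F-test without a replicate block and Benjamini-Hochberg adjustment over 14660 genes. The thresholds are those of the study's methods. SE is the log2 fold change over the square root of F. Changes of single libraries used a prior count of 2. The test was tried on simulated counts. Of 97 genes given a log2 change of 1 up or down, 48 were called. All 97 given a log2 change of 2 were called, and 2 of 14218 unchanged genes. The simulated libraries had no trend on GC content, unlike ASO_LINC#3 replicate 3. The changed genes were not matched to the members, which had a median of 57.5 counts against 113.8 over all genes tested. These rates may therefore not hold for the members. Alternatives used DESeq2 1.42.0 and limma 3.58.1. Positions, lengths and GC content came from GENCODE lifted to GRCh37. Of tested genes 86.6% were matched, by name or by an older symbol, and of tested members 100%, all by name.

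The members and lists were chosen with earlier results of these data known. Values in every library are given for called members, in each family for the 5 largest rises and falls not called among members with a mean of at least 50 counts, for the 3 highest levels per kb and for textbook members. The SCAN family holds fewer such falls than 5. The value of 0.4 for promoter CpG, the genes named for the difference of ASO_LINC#3 replicate 3 and ZKSCAN4, ZBTB9 and ZBTB22 were picked after the values were seen.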

Additional observations from a re-analysis of the deposited data

How the results depend on the processing

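The number of members called was 3 with DESeq2, limma-voom, RLE, upper quartile or library-size scaling, no filter, robust dispersion and the GC and length correction with the replicate block, and 2 with at least 10 counts in every library, where *ZBTB7C* was not tested. It was 6 at an adjusted p below 0.05, 1 (*ZSCAN31*) with glmTreat against the fold bound and 6 with the GC and length correction. Leaving out 1 library gave between 1 and 4, with 1 without ASO_CTRL replicate 3, ASO_LINC#3 replicate 1 or ASO_LINC#3 replicate 2 and 4 without ASO_LINC#3 replicate 3. Over all genes the counts were 2465 (16.8% of genes tested) at an adjusted p below 0.05 with the fold bound and 384 (2.62%) with glmTreat. The GC and length correction, fitted on 12697 annotated genes, gave 1697 (13.4%). Leaving out 1 library gave between 359 genes (2.42%, without ASO_CTRL replicate 3) and 2616 genes (17.2%, without ASO_LINC#3 replicate 3).

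Same-numbered libraries did not deviate together (correlations of 0.059, -0.149 and -0.18 of their deviations from the group means). With the replicate block 2 members (*ZBTB7C* and *ZSCAN31*) and 656 genes in all were called, and *ZBTB43* had an adjusted p of 0.0103. With the block added to the GC and length correction, *ZBTB1*, *ZBTB8A* and *ZBTB44* were no longer called (adjusted p of 0.0115, 0.0253 and 0.0246).

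The median log2 fold change of the SCAN members lay between -0.088 and 0.177 when 1 library was left out. That of the ZBTB members was 0.0543 with at least 10 counts in every library, -0.0979 with the GC and length correction, -0.0981 with the block added,, and between -0.109 and 0.0878 when 1 library was left out. Some log2 fold changes near 0 changed sign. *ZSCAN9* was at -0.0092 with upper quartile scaling, -0.0181 with the replicate block, -0.00077 with the block and the GC and length correction, and between -0.0925 and 0.141 when 1 library was left out. When 1 library was left out, *ZKSCAN5* ranged from -0.0265 to 0.272, *ZBTB17* from -0.288 to 0.463 and *ZBTB48* from -0.102 to 0.738, each lowest without ASO_LINC#3 replicate 3, and *ZBTB17* was at -0.049 without ASO_CTRL replicate 3. The causes of these differences were not tested.

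Standard errors over the tested members ran from 0.121 (*ZBTB7A*) to 0.493 (*ZBTB41*). *ZBTB33*, *ZBTB42* and *ZKSCAN7* had too few counts to be tested.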
